A study of Mus musculus with 8 samples.

Results

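The Zfp genes of the mouse are named for the zinc finger, a short fold of the protein chain that is held together by a zinc ion and that in most of them reads DNA letters. Members were the genes whose current symbol is Zfp followed by digits only, with Zfp36, an RNA-binding protein of another family, left out. They were found through the gene ID in the probe name, and 155 of the 8102 genes named in this way were members. They were read by 199 probes, and 39 members had more than 1 probe. The RefSeq table holds 371 genes with such symbols, so the members are a part of the family. The rule uses the symbol alone, but the group was proposed with earlier results of these data known.

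Many Zfp proteins carry a chain of C2H2 fingers and a KRAB domain, which recruits the corepressor TRIM28 and with it enzymes that close chromatin. A large share of them bind transposable elements, and their genes arose by repeated local duplication, and the family differs in sequence and copy number between mouse strains. Other members have no KRAB domain and act as activators, in RNA binding or in the choice of mesenchymal cells between bone and fat.

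The cells were mesenchymal stem cells (MSC), adherent stromal cells grown out of bone marrow, and no array is labelled as treated, although the series design also describes a culture step with the inflammatory cytokine IL-1beta. There were 4 cultures from BALB/c mice and 4 from NOD mice, an inbred strain that develops autoimmune diabetes. Per the series design the NOD mice had normal blood glucose, the BALB/c mice were of the same age, each culture pooled the marrow of at least 5 mice, and cells were taken at passage 4, whereas the titles read as single mice. Each culture was read on 1 single-colour Illumina array, and the design compares NOD with BALB/c as the reference.

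On each array 36.1% to 39.3% of the probes had a detection p-value under 0.05, the threshold used here for a detected probe. The BALB/c cultures were less alike than the NOD cultures, with correlations between arrays of 0.842 to 0.983 against 0.927 to 0.985 across tested probes. Of 6 mesenchymal markers that could be named, Col1a1, Col1a2, Eng and Vcam1 were detected on all 8 arrays, Cd44 on 4 and the niche chemokine Cxcl12 on none. Of 7 leukocyte markers, Ptprc, Itgam and Cd3e were detected on no array. The macrophage gene Cd68 passed detection in every BALB/c culture and in none from NOD. In the order of the culture numbers, 2, 2, 1 and 4 leukocyte markers were detected in BALB/c, against 0, 0, 1 and 1 in NOD, and their mean log2 level was 5.14 to 6.79 in BALB/c and 4.98 to 5.48 in NOD. The mean log2 level of 5 proliferation markers was 6.26 to 8.77 in BALB/c and 9.21 to 10.05 in NOD, so that the groups did not overlap. The part of these cells or of growth state in the results that follow was not tested. In cultures measured in bulk, fewer cells of a type and less RNA per cell cannot be told apart. The labels name no batch, and one that followed the strains could not be told apart from them.

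Zfp933, Zfp93 and Zfp790, all lower in NOD MSC, are shown first by the 250 bases before their RefSeq start (mouse build GRCm38.p6, 5′ to 3′ on the gene's strand), because they share a run of letters there. The windows are chr4:147848419-147848668 on the minus strand, chr7:24270168-24270417 on the plus strand and chr7:29815822-29816071 on the plus strand. Capitals mark a run of 14 letters, ACTACA and TCCCAG with any 2 letters between them, searched on both strands. It is the core of the site bound by the human zinc finger protein ZNF143. In Zfp790 a CCAAT box is in capitals as well. The letters are those of the reference build, and no BALB/c or NOD sequence was read.
Zfp933: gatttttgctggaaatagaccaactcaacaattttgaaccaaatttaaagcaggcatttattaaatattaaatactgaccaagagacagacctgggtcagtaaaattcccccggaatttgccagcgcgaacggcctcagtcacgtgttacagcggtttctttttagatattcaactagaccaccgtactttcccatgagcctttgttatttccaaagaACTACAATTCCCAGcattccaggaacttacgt
Zfp93: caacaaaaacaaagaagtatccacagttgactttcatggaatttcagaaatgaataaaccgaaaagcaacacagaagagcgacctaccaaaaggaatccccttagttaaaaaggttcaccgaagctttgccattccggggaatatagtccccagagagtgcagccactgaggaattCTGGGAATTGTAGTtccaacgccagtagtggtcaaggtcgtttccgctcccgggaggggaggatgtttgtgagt
Zfp790: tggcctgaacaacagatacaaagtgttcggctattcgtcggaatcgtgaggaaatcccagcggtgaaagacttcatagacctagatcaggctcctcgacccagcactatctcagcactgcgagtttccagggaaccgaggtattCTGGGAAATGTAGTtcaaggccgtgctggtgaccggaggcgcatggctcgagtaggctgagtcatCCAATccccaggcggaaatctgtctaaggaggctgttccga
The run was noticed by reading these windows and was then searched for in all of them. It was present in 15 of 147 windows of members (10.2%) and in 0.95% of 32851 windows of all genes. The 15 include the 3 windows in which it was noticed, so the members' share is not free of that choice. Of 10 windows of called members 3 held it. Among untested members it was in 9 of 63 windows (14.3%), and among those tested and not called in 3 of 74 (4.05%). Of the 15 members that hold it, 6 were tested and 3 were called, all lower in NOD. Of all named genes 9.08% were called at the same threshold, and since the run was noticed in the windows of called genes, the 3 calls support nothing about it. The other 3 were Zfp180 (0.38, adjusted p = 0.313), Zfp28 (0.17, adjusted p = 0.744) and Zfp566 (-0.50, adjusted p = 0.348). A match is a run of letters and not a measured binding site. Windows were found for 126 of the 155 members, among them 9 of the 11 called ones.

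Of the 155 members, 87 had a probe detected on at least 4 of the 8 arrays and were tested, 56.1% against 52.1% of all named genes. The other 68 were not tested. In 53 of these no probe was detected on any array. The remaining 15 were detected on 1 to 3 arrays, among them Zfp329 on 2 NOD arrays and no BALB/c array, and Zfp687 and Zfp952 on 2 BALB/c arrays and no NOD array (named after their values were seen). By its brightest probe, a member was detected on all 4 BALB/c arrays in 80 cases and on all 4 NOD arrays in 72. Over all probes 37.3% to 39.3% were detected on the BALB/c arrays and 36.1% to 38.0% on the NOD arrays. All BALB/c arrays and no NOD array detected 3 members, and 1 member had the reverse. Among all named genes 44 and 23 did so, together 1.59% of those tested. Whether the members differ from all genes in this was not tested.

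In NOD MSC, 9 Zfp genes were lower and 2 were higher than in BALB/c MSC at an adjusted p under 0.05 by limma, 11 of 87 tested or 12.6%. The same rule called 9.08% of all named genes and 8.52% of all tested probes, and in single directions 4.95% of named genes as lower and 4.12% as higher, and 4.37% and 4.16% of the probes. Whether the members' share differs from that of all genes was not tested. The median log2 difference (NOD minus BALB/c) was -0.10 over the 87 members and -0.02 over all named genes. The median absolute difference was 0.39 in both. The lower genes were Zfp871, Zfp933, Zfp612, Zfp93, Zfp324, Zfp790, Zfp983, Zfp710 and Zfp746, and the higher ones were Zfp446 and Zfp775. In all 11 the strains did not overlap. The same was true of 20 of the 87 tested members, 15 with every NOD array below and 5 with every NOD array above. Over all named genes 18.9% were separated in this way, 10.2% with NOD below and 8.7% with NOD above, and over all tested probes 17.2%, with 9.25% and 7.92%. The 9 separated members that were not called were Zfp101, Zfp317, Zfp346, Zfp410, Zfp445, Zfp654, Zfp777, Zfp870 and Zfp932.

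The count moved with single cultures. It was 20 without BALB/c culture 2 (14 lower, 6 higher) and 32 without BALB/c cultures 2 and 3 (19 lower, 13 higher), and all 11 genes were among the calls both times. The members' shares, 23% and 36.8%, were near those of all tested probes in the same fits, 20.8% and 36%. Without any other single culture it lay between 8 and 16. Without BALB/c cultures 2 and 4, which had the highest mean leukocyte level, it was 11, or 12.6% against 8.24% of all probes, and 9 of the calls were shared.

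**Figure D1:**
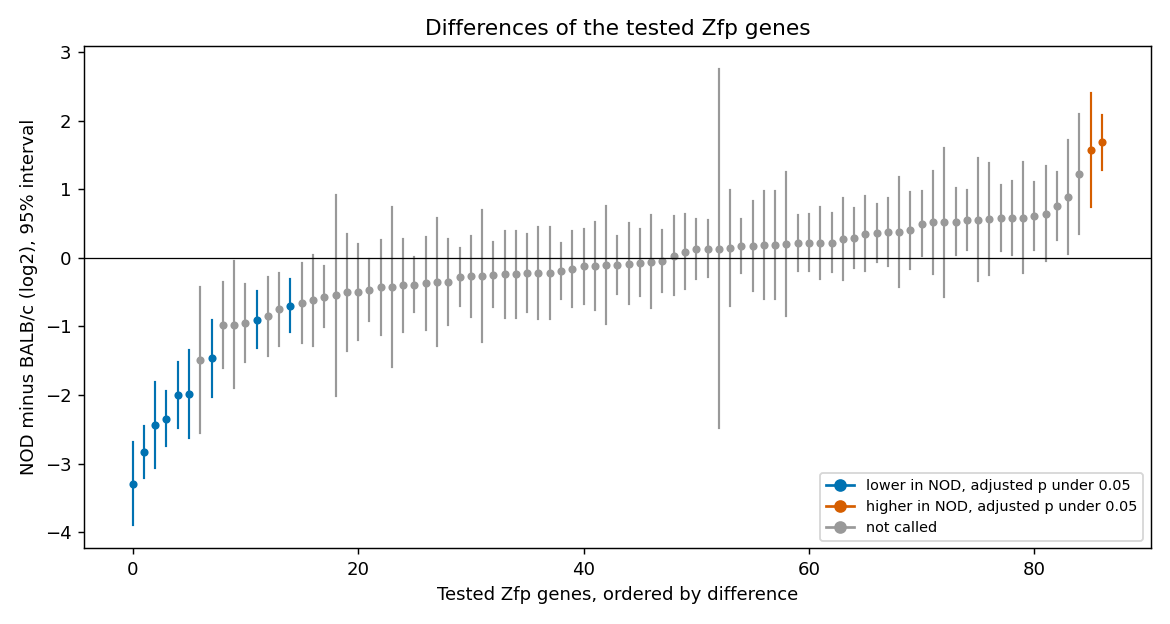
Log2 difference (NOD minus BALB/c) of each of the 87 tested Zfp genes and its 95% interval, ordered by size. The 9 genes lower in NOD (blue) reach -3.29, and the 2 higher genes (orange) lie at 1.58 and 1.68, while the grey genes were not called.

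Zfp933 (gene ID 242747) had the smallest adjusted p of the members. Levels are normalized log2 intensities and are given in the order of cultures 1 to 4. Its first probe read 8.37, 8.12, 8.08 and 8.10 in BALB/c, and 5.45, 5.23, 5.36 and 5.32 in NOD. The NOD values lay at background, since no NOD array detected the probe and every BALB/c array did. The fitted difference was -2.83 ± 0.17 (SE, adjusted p = 1.93e-05), and under this background correction the BALB/c level was at least 6.22-fold higher. For such a bound the dimmer strain's arrays were set at the dimmest detected signal wherever the probe itself read lower. The bounds hold for this correction and offset only, and some other settings gave smaller differences, which are set out after the called genes.

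The second probe of Zfp933 did not follow the first. It was detected on all 8 arrays and read 6.24, 6.75, 6.93 and 6.23 in BALB/c and 6.41, 6.03, 6.05 and 6.58 in NOD, so that the strains overlapped. Its difference was -0.27 with a 95% interval of -0.81 to 0.27 (adjusted p = 0.519). Probe sequences were not analysed here, and a sequence variant between the strains under the first probe was not tested.

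Zfp871 (gene ID 208292) had the largest fitted difference of the members. It read 9.16, 8.86, 8.31 and 9.23 in BALB/c and 5.50, 5.36, 6.09 and 5.44 in NOD. The groups did not overlap, but NOD culture 3 was the single NOD array that detected it, and the other 3 NOD values are not above background. The fitted difference was -3.29 ± 0.27 (SE, adjusted p = 0.000143), and it was -1.01 with the detection p-values used as deposited. Since those 3 NOD values are not above background, no fold is given.

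Zfp93 (gene ID 22755) read 7.46, 7.49, 7.45 and 7.28 in BALB/c and 5.11, 5.33, 4.85 and 5.01 in NOD, where no array detected it. Under the same correction it was at least 3.81-fold lower in NOD (difference -2.35 ± 0.18 SE, adjusted p = 9.25e-05). The other probes of Zfp93 were detected on 1 and 0 of the 8 arrays and were not tested. They therefore give no reading of the difference.

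Zfp612 (gene ID 234725) read 8.12, 6.78, 7.24 and 7.35 in BALB/c and 4.94, 4.96, 4.98 and 4.87 in NOD. All BALB/c arrays and no NOD array detected it. Under the same correction it was at least 3.69-fold lower in NOD (difference -2.43 ± 0.28 SE, adjusted p = 0.000925). Zfp790 (gene ID 233056) read 7.58, 7.60, 7.13 and 7.62 in BALB/c and 5.73, 5.39, 5.15 and 5.68 in NOD, where 1 array detected it (difference -1.99 ± 0.21 SE, adjusted p = 0.000665). The second probe of Zfp790 was detected on no array.

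Zfp324 (gene ID 243834) was detected on all 8 arrays. It read 7.82, 8.82, 7.61 and 8.12 in BALB/c and 6.19, 6.21, 5.76 and 6.26 in NOD. NOD culture 3 (5.76) read just above that array's dimmest detected signal (5.64). Under this background correction Zfp324 was 3.96-fold lower (difference -1.98 ± 0.28 SE, adjusted p = 0.00359). With the detection p-values used as deposited the difference was -0.49 and was not called. Zfp983 (gene ID 73229) was detected on 4 BALB/c and 2 NOD arrays. It read 7.39, 6.90, 6.68 and 6.76 in BALB/c and 5.82, 5.16, 5.16 and 5.72 in NOD (difference -1.46 ± 0.25 SE, adjusted p = 0.00877). As with Zfp933, the second tested probe of Zfp983 showed less of a difference, -0.16 with a 95% interval of -0.59 to 0.26 (adjusted p = 0.620). That probe read 6.10, 6.12, 5.81 and 5.99 in BALB/c and 5.95, 5.90, 5.50 and 6.02 in NOD. The dimmest detected signals lay at 5.15 to 5.67 over the arrays, so it had little room to show a fall. The last probe of Zfp983 was detected on 2 BALB/c arrays and no NOD array and was not tested.

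Zfp710 and Zfp746 were well above background in both strains, and their differences were smaller. Zfp746, also known as PARIS, is a substrate of the ubiquitin ligase parkin and represses the coactivator gene Ppargc1a. It read 9.31, 8.89, 9.26 and 9.15 in BALB/c and 8.45, 8.52, 8.37 and 8.50 in NOD, and was 1.62-fold lower (difference -0.70 ± 0.17 SE, adjusted p = 0.0413). Zfp710 read 8.96, 8.84, 8.85 and 8.87 in BALB/c and 8.10, 8.22, 7.65 and 7.95 in NOD, and was 1.87-fold lower (difference -0.90 ± 0.18 SE, adjusted p = 0.0192). The strains did not overlap in either gene. The call of Zfp746 was lost in 8 of 20 other fits and that of Zfp710 in 7 of 20.

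Zfp446 (gene ID 269870) had the opposite pattern to Zfp933. It was detected on all 4 NOD arrays and on no BALB/c array, with 6.93, 7.03, 6.56 and 6.71 in NOD against 5.14, 5.11, 5.02 and 5.22 in BALB/c. Under the same correction it was at least 2.81-fold higher in NOD (difference 1.68 ± 0.18 SE, adjusted p = 0.000629). The second probe of Zfp446 was detected on no array. Zfp775 (gene ID 243372) read 5.81, 5.67, 6.14 and 5.98 in BALB/c and 7.85, 8.07, 6.34 and 7.63 in NOD. NOD culture 3 lay near the BALB/c values and the other NOD cultures well above. BALB/c culture 2 (5.67) read at that array's dimmest detected signal. Under this background correction Zfp775 was 2.98-fold higher (difference 1.58 ± 0.36 SE, adjusted p = 0.0329). With the detection p-values used as deposited the difference was 0.29 and was not called. In 9 of 20 alternative fits it was not called.

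**Figure D2:**
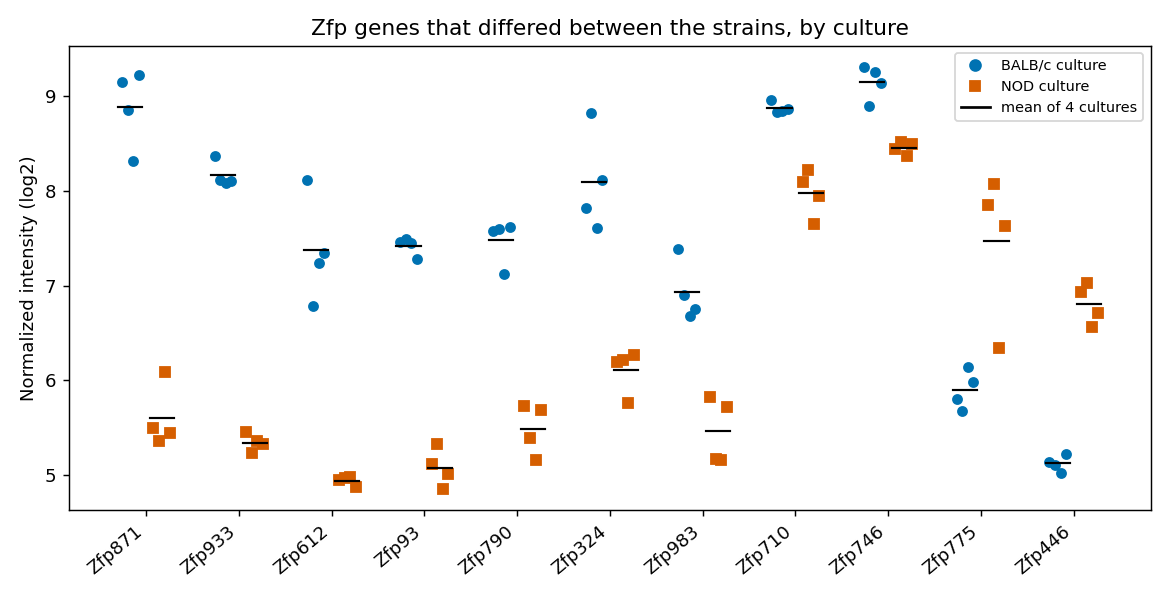
Normalized log2 intensity of the 11 called Zfp genes in each BALB/c culture (blue circles) and NOD culture (orange squares), with the mean of 4 cultures as a black line. No gene shows an overlap of the strains, and NOD culture 3 of Zfp775, at 6.34, comes closest to the BALB/c values.

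The size of these differences depended on the background fit. With the detection p-values used as deposited, the differences were -0.56 for Zfp933, -1.01 for Zfp871, -0.32 for Zfp93, -0.35 for Zfp612, -0.30 for Zfp790, -0.49 for Zfp324, -0.18 for Zfp983, -0.52 for Zfp710, -0.54 for Zfp746, 0.19 for Zfp446 and 0.29 for Zfp775. The calls of Zfp324 (adjusted p = 0.0723), Zfp983 (0.0635) and Zfp775 (0.0995) were lost there. In the authors' own normalized values all 11 were called, with -2.21 for Zfp933, -2.66 for Zfp871, -1.96 for Zfp93, -2.12 for Zfp612 and 1.40 for Zfp446. With an offset of 50 these were -2.11, -2.62, -1.60, -1.64 and 1.09. For Zfp933, Zfp93, Zfp612 and Zfp446 the differences with an offset of 50 and with the deposited p-values lie below the bounds given above, as do those of Zfp933 and Zfp446 in the authors' values. Of the 68 members detected on all 8 arrays 4 were called, 5.88% against 7.03% of all such named genes. The other 7 calls were among the 19 members detected on 4 to 7 arrays, 36.8% against 18.9% of all such named genes. A gene that passes the filter only through the strain where it is high had to differ, so this count supports nothing about the family.

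Second probes were examined because strain variants are likely in this family. A pair of probes passed the filter in 15 members. The signs of their differences were the same in 10 and opposite in 5, Zfp467, Zfp566, Zfp64, Zfp869 and Zfp932, none of which was called by either probe. Over all named genes with 2 tested probes the sign was the same in 68.1% of 458. The median gap between the probes' differences was 0.49 in the members and 0.36 over all named genes. In both members called by the first probe, Zfp933 and Zfp983, the second probe was not called. Both second probes were dimmer than the first in BALB/c and had less room to show a fall. Among all named genes the second probe was called in 19 of 43 such cases (44.2%). Agreement was close for Zfp68 (0.58 and 0.54), Zfp654 (-0.75 and -0.89) and Zfp317 (-0.39 and -0.54), which were chosen after their values were seen.

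**Figure D3:**
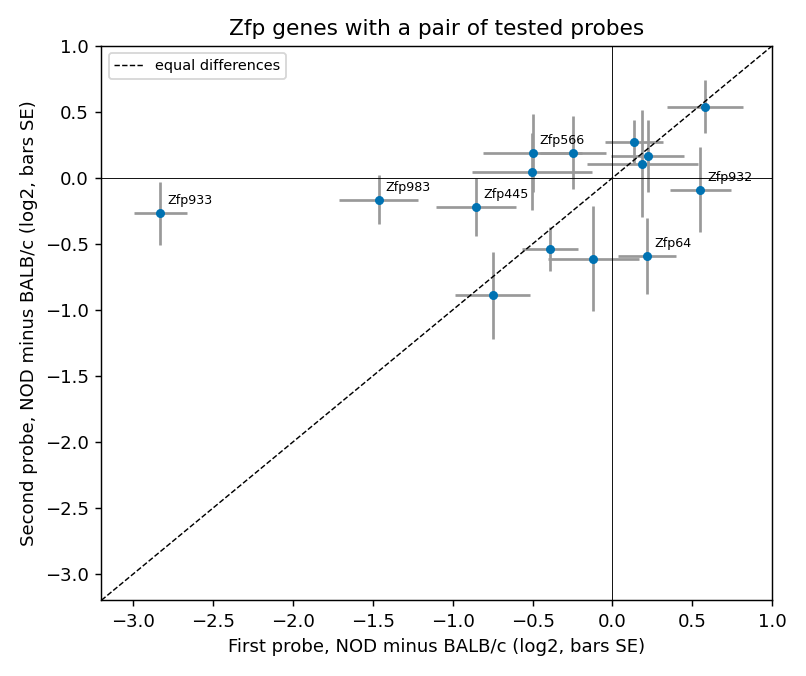
Difference NOD minus BALB/c (log2) of the second probe against that of the first, the brighter, in the 15 Zfp genes with a pair of tested probes, with SE bars. Points on the dashed line have equal differences, and Zfp933 (-2.83 and -0.27) and Zfp983 (-1.46 and -0.16) lie farthest to the left of it.

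Zfp704 was among the members with the narrowest interval around 0 by its first probe (0.13, 95% interval -0.31 to 0.57), which was detected on all 8 arrays. Its second probe was detected on 3 BALB/c arrays and no NOD array and was not tested. It read 7.70, 5.50, 7.51 and 7.17 in BALB/c and 5.09, 5.34, 5.14 and 5.58 in NOD. BALB/c culture 2 lay with the NOD cultures.

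**Figure D4:**
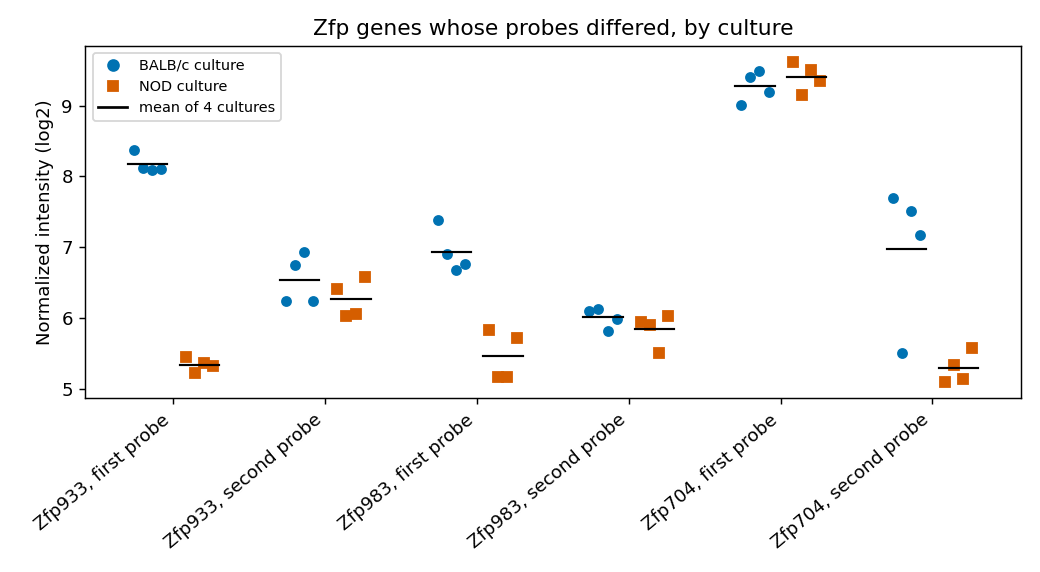
Normalized log2 intensity of a pair of probes each for Zfp933, Zfp983 and Zfp704 by culture, with the mean of 4 cultures as a black line. In Zfp933 the first probe separates the strain means, 8.17 and 5.34, and the second, at 6.03 to 6.93 on all arrays, does not.

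Members known from mesenchymal cells were present, and none was called. Zfp521, which holds back fat cell formation and modulates bone cell differentiation, read 8.96, 10.41, 8.49 and 9.69 in BALB/c and 10.66, 10.75, 10.37 and 10.67 in NOD. The strains overlapped through BALB/c culture 2 (difference 1.22 ± 0.39 SE, adjusted p = 0.0887). Without that culture it was called (1.56, adjusted p = 0.0111), in a fit that called 20.8% of all probes. Zfp467, which favours fat over bone in marrow stroma, had a difference of -0.50 by its first probe (adjusted p = 0.442) and 0.05 by its second (adjusted p = 0.938). Zfp219, a partner of Sox9 in cartilage cells, had a difference of -0.97 ± 0.41 SE (adjusted p = 0.176). Zfp703 was detected on 3 BALB/c and 4 NOD arrays (0.56, adjusted p = 0.415), and Zfp281, a regulator of pluripotent cells, had a difference of 0.22 (adjusted p = 0.493).

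Zfp445, a KRAB protein that keeps imprinted genes methylated, read 9.80, 8.64, 9.17 and 9.39 in BALB/c and 8.39, 8.40, 8.42 and 8.36 in NOD. The strains did not overlap, and the gene missed the threshold (difference -0.85 ± 0.25 SE, adjusted p = 0.0730), which it passed without BALB/c culture 2 (-1.06, adjusted p = 0.0119). The second probe of Zfp445 gave -0.22 (adjusted p = 0.572). Zfp870 stood just outside the threshold (-0.94, adjusted p = 0.0526). Zfp318, which is needed for immunoglobulin D in B cells, had a difference of -0.98 (adjusted p = 0.0645) and Zfp101 one of 0.76 (adjusted p = 0.0714). Zfp972 (-1.49, adjusted p = 0.0882) and Zfp94 (0.89, adjusted p = 0.172) completed the 8 largest differences that were not called. Of these 8, Zfp318, Zfp445, Zfp521 and Zfp870 were called without BALB/c culture 2, Zfp101, Zfp870 and Zfp972 without BALB/c culture 3, and Zfp94 without NOD culture 3. These fits called 20.8%, 15% and 4.81% of all probes, in that order. Without BALB/c culture 1 the adjusted p by limma rose for Zfp521 (0.22), Zfp318 (0.17), Zfp445 (0.168), Zfp101 (0.157) and Zfp219 (0.316).

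In 42 of the 87 members the 95% interval of the difference lay within 1 log2 unit of 0, a 2-fold change, as it did in 45.5% of all named genes. The narrowest around 0 were those of Zfp236 (-0.28 to 0.55), Zfp276 (-0.55 to 0.61), Zfp398 (-0.60 to 0.22), Zfp451 (-0.23 to 0.56), Zfp513 (-0.49 to 0.41), Zfp54 (-0.53 to 0.32), Zfp592 (-0.56 to 0.42) and Zfp704. Zfp451 is a SUMO ligase, with a known function outside DNA binding.

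The members varied more among BALB/c than among NOD cultures, with a median SD of 0.36 against 0.26, and over all named genes 0.44 against 0.26. Zfp536, a repressor known from neurons, varied most. It read 11.62, 6.45, 12.20 and 10.48 in BALB/c and 10.91, 10.91, 8.91 and 10.57 in NOD, with the low value in BALB/c culture 2. Zfp664 read 7.47, 9.78, 9.09 and 7.88 in BALB/c and 8.72 to 9.36 in NOD. Zfp184 read 6.70 to 6.73 in 3 BALB/c cultures and 8.89 in culture 3, and 7.32, 7.43, 5.15 and 6.95 in NOD. Its SD was 1.09 in BALB/c and 1.06 in NOD. Zfp395 read 7.65, 5.67, 5.95 and 7.57 in BALB/c, where cultures 1 and 4 were high, and 5.59 to 6.98 in NOD. None of the 4 was called. BALB/c culture 2 held the lowest value of 21 of the 87 members and the highest of 15. NOD culture 3 held the lowest of 23 and the highest of 6. The same count was not made over all named genes.

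The partners of KRAB proteins in repression were examined through a list of corepressor genes, of which 19 could be named and 14 were tested. Trim28 and Setdb1, also on the list, are not analysed here, so the counts do not cover them. None of the 14 was called by limma, where the same rule called 9.08% of all named genes. Whether the list's share differs from that was not tested. By the same fit 3 had an unadjusted p under 0.05, 21.4% against 27.5% of all named genes. Of the 14 differences 9 were positive and 5 negative, with a median of 0.22, against -0.02 over all named genes. The largest were those of Uhrf1, a reader of DNA methylation (1.70, adjusted p = 0.101), and Cbx3, a heterochromatin protein (1.59, adjusted p = 0.110), both named after their values were seen. Morc2a (-0.28, adjusted p = 0.313) and Tasor (0.47, adjusted p = 0.176) are an effector and a subunit of the silencing complex HUSH. They were named in the same way and had smaller differences than Uhrf1 and Cbx3. Tasor was among the 3 genes with an unadjusted p under 0.05. The strains did not overlap in 4 of the 14, Morc2a and Tasor among them, where 18.9% of all named genes were separated. The list gave 5 calls, all higher in NOD, without BALB/c cultures 2 and 3, and 1 call without culture 2 alone or culture 3 alone. These are 35.7% and 7.14% of the list, where the same fits called 36% of all probes and 20.8% or 15% of them.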

How the data were processed

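Members, lists and tests were chosen with earlier results of these data known. Per the file headers, the deposited table gives for each of 46628 probes the mean bead signal intensity, not normalized, and a detection p-value, which on this platform is set by the array's negative controls. A second deposited table holds the authors' normalized intensity, by a method not given in the sources used here. Per the labels' protocols, biotinylated cRNA was made for Illumina arrays.

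Probe names carry no symbol. A zero-padded number of 5 or 6 digits in 11857 of them was read as a gene ID, and 82.6% were found in the RefSeq table of GRCm38.p6. Background was corrected in R 4.3.3 with limma 3.58.1 (normexp from detection p-values, offset 16), after the 4 or 5 p-values per array below 1 step of the controls were set to 0, followed by quantile normalization and log2. After 356 control and numeric-accession probes were left out, 17776 probes detected (p under 0.05) on at least 4 of 8 arrays were fitted with lmFit and eBayes, NOD against BALB/c, with Benjamini-Hochberg adjustment over all of them. Each gene is represented by its brightest tested probe. Levels are log2 intensities and errors the SE of the fit. The fit was run on simulated data with the same spread in both strains. These cultures did not have that, so the simulation says nothing about unequal spread. The number of arrays, 4 a strain, limits the precision. The p-values set a difference against the spread between these pooled cultures, moderated over all tested probes. They do not cover the spread between single mice.

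Named genes were Zfp933, every called member, members whose second tested probe differed in sign or call, those detected on all arrays of 1 strain only, the 8 largest uncalled differences, the 8 intervals nearest 0, the 4 largest SDs within a strain, and members with a known role in mesenchymal cells or imprinting. Of the corepressor list, called genes, Trim28 and Setdb1 were to be named; Trim28 and Setdb1 are not analysed here, nor are Zfp423, Zfp57, Zfp809 and Zfp217. Promoter letters come from RefSeq windows. Of the other letters searched on both strands, the CCAAT box (CCAAT) was in 44.2% of members' windows and 33.8% of all windows, the GC box (GGGCGG) in 41.5% and 32.7%, the ETS site (CCGGAAG) in 15.6% and 6.91%, the palindromic NRF1 site in 2.72% and 0.782%, the YY1 site in 1.36% and 0.301%, and the TATA box (TATAAA) in 6.8% and 12.4%. Of the endothelial markers Pecam1 and of the erythroid markers Hba-a1 and Hbb-b1 could be named, and Hba-a1 was detected on 2 BALB/c arrays and the others on none. The robust background used Huber estimates of the inferred controls, since limma's own option has no effect with detection p-values, and array weights were fitted gene by gene after the default did not converge. Alternatives changed the background, offset, scaling, filter, probe choice, array weights, replicate block and cultures used; fits without a culture kept the same probes.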

Additional observations from a re-analysis of the deposited data

Results flagged for a closer look

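Within each strain the 4 cultures of every named gene were searched for a value far from the others. Of 76 groups 7 held one. Chance gives about 5% for genes drawn without regard to their values. These genes were named partly for their spread or their difference, so the count shows no excess. Zfp184 was at 8.89 in BALB/c culture 3, against 6.70 to 6.73 in the others. Zfp790 was at 7.13 in BALB/c culture 3, against 7.58 to 7.62. The first probe of Zfp933 was at 8.375 in BALB/c culture 1, against 8.08 to 8.12. Zfp318 was at 9.91 in NOD culture 2, against 9.13 to 9.22. The remaining values all belong to NOD culture 3. There Zfp324 was at 5.76 (others 6.19 to 6.26), Zfp467 at 8.9996 (others 10.16 to 10.25) and Zfp972 at 6.30 (others 5.16 to 5.35).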

How the results depend on the processing

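The count of 11 called Zfp genes was 4 among probes detected on all 8 arrays, where 68 members were tested. It was 48 with array weights, which reached 11 for NOD culture 4 and were 0.178 and 0.243 for BALB/c cultures 2 and 3, and 32 without BALB/c cultures 2 and 3. Leaving out 1 culture gave 8 to 20. The other fits gave 8 to 12, with 8 under the deposited detection p-values. The count of 0 corepressor genes became 6 under array weights and 5 when BALB/c cultures 2 and 3 were left out, and was 0 to 1 when 1 culture was left out. Median scaling moved the median difference of all probes to 0.15, and the Zfp calls split into 4 higher and 7 lower. Over all probes it called 965 as higher and 545 as lower, against 739 and 776. The count over all probes, 1515, was 9179 with array weights, 6398 without BALB/c cultures 2 and 3, 770 among probes detected on all arrays, 515 with the replicate block, and 623 to 3692 when 1 culture was left out.

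Cultures of the same number did not pair. Their deviations from the strain means correlated at -0.33, -0.64, -0.05 and 0.08, and none of the arrays correlated best with its own number. With the replicate number as a block, 8 Zfp genes were called, 7 lower and 1 higher, and no corepressor gene.

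Zfp933, Zfp871, Zfp93, Zfp612, Zfp790 and Zfp446 kept their call in all 19 other fits they entered. Each was detected on 4 or 5 arrays and so did not enter the fit of probes detected on all 8. Each passed the filter through the strain where it is high, and the fits reused the same arrays. The kept calls are therefore no separate support. Differences that changed sign belonged to genes that were not called. Under the deposited detection p-values, Zfp276 was -0.0136 and Zfp536 -0.28. With array weights, Zfp184 was 0.0785, Zfp467 0.0157, Zfp513 0.0838 and Zfp536 -0.24. With median scaling, Zfp513 was 0.0949, Zfp54 0.0122 and Zfp592 0.12, and in the authors' table Zfp513 was 0.10 and Zfp592 0.0064. With the mean of both probes, Zfp64 was -0.19. Without BALB/c cultures 2 and 3, Zfp184 was 0.0028, Zfp236 -0.0034, Zfp513 0.14 and Zfp536 -0.72. Without BALB/c cultures 2 and 4, a fit chosen after seeing the data, Zfp276 was -0.30 and Zfp536 -1.59. When 1 culture was left out, Zfp276 ranged from -0.0996 to 0.2542, Zfp513 from -0.1083 to 0.0975, Zfp536 from -1.1094 to 0.8078 and Zfp592 from -0.2106 to 0.0452. The cause was not tested.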

Other observations

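Zfp genes often lie next to each other. By the RefSeq table of GRCm38.p6, 12 pairs of tested members had no other protein-coding gene between them. The differences had the same sign in 8 pairs and opposite signs in 4. Both genes were called in 1 pair, the neighbours Zfp324 and Zfp446, and there in opposite directions, with Zfp324 lower (-1.98) and Zfp446 higher (1.68) in NOD. In 2 more pairs 1 gene was called. Zfp93 (-2.35) lies beside Zfp61 (-0.36, adjusted p = 0.624), and Zfp746 (-0.70) beside Zfp777 (-0.46, adjusted p = 0.185). Neighbours can share sequence through duplication, and whether a probe reads only its own gene was not tested. The gene order is that of the reference build and was not read in either strain.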
